A study of Mus musculus with 2 samples.

Results

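New intergenic loci are stretches of the mouse genome where long cDNA reads of heart were placed outside every annotated gene, and where the deposited annotation holds a transcript model of its own. They were taken as all models whose gene was classed as intergenic, 1969 in replicate 1 and 3621 in replicate 2, and models of both libraries were joined where their spans overlapped on the same strand. This gave 4518 loci among 33551 annotated genes and new loci with reads, beside 15410 annotated genes and 13623 new antisense loci. Both libraries belong to 1 group and used 2 µg of heart RNA each, from male B6CASTF1/J mice, a first-generation cross of a C57BL/6J and a CAST/EiJ parent, aged 18 to 20 months. Labels number the libraries as replicates 1 and 2 but give them 1 donor identifier, so the spread between them may be technical, and tests compare libraries, not conditions. The mm10 assembly is that of C57BL/6J, and the parental allele of each read was not analysed here. The heart label was checked on marker genes. The 8 cardiomyocyte markers, led by Myh6, summed to 42209 and 43877 reads per 1e6 mouse reads (CPM), and the skeletal muscle markers Myh1, Myh2, Myh4 and Actn3 had no reads. Erythroid markers summed to 6479 and 5958 CPM, atrial markers to 4121 and 3144, fibroblast markers to 4275 and 3373, mural markers to 302 and 289.8, endothelial markers to 176 and 247, macrophage markers to 95.8 and 82.7 and adipocyte markers to 244 and 37.8. Gsn held 2489 and 2896 of the 2945 and 3386 fibroblast reads, and Car3 held 132 and 29 of the 168 and 38 adipocyte reads. Of the lung and thymus markers, Sftpc had no reads and Cd8b1 had 0 and 1.

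RNA from between genes has several known sources. Long noncoding RNAs are capped, often spliced transcripts with no long reading frame, and many of them are made at low levels in few tissues. Promoters of coding genes can also fire in the opposite direction and give short divergent RNAs, and RNA polymerase can run on past the end of a gene. Copies of coding mRNAs that were pasted into the genome, called processed pseudogenes, share long stretches with their parent gene, so that a read can be placed on either.

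The label intergenic was checked against the GENCODE M21 genes. Of the 4518 loci, 655 (14.5%) shared exactly 1 base with a gene span, 12 overlapped a gene span by more than 1 base and 4 lay on sequences without an annotated gene. All 12 were spliced loci. Of the 4518, 230 loci overlapped a gene that RefSeq places on the same strand and that GENCODE M21 does not hold, 211 of them long noncoding RNAs and 19 protein-coding. A further 397 loci overlapped the RefSeq span of a gene on their own strand that GENCODE M21 also holds. These 397 held 25.3% of the intergenic reads of replicate 1 and 13.9% of those of replicate 2.

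RefSeq start sites give the sequence around the start of some loci. Of the 4518 loci, 64 began within 250 bases before to 50 bases after a RefSeq start on their own strand, and for 60 of these the gene is absent from GENCODE M21. The distance between the 2 starts was at most 10 bases in 19 of the 60, at most 50 bases in 39, and 23.5 bases in the median. The 60 loci comprised 54 at long noncoding RNA genes, 47 were spliced and 26 were found in both libraries. The windows of 4 such genes are shown (RefSeq, GRCm38.p6, read 5′ to 3′ on the plus strand) because their loci have at least 10 reads and differ in base composition. Capitals mark the bases from the deposited start of the locus onwards.
Gm36149 (chr5:111490630-111490929): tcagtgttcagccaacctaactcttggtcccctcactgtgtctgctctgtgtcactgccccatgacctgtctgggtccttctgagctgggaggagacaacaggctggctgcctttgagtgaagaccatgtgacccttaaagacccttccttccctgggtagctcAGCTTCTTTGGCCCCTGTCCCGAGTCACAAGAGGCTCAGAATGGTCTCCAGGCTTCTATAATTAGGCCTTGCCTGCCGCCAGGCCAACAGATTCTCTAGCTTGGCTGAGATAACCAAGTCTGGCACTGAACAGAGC
Gm35546 (chr1:186587072-186587371): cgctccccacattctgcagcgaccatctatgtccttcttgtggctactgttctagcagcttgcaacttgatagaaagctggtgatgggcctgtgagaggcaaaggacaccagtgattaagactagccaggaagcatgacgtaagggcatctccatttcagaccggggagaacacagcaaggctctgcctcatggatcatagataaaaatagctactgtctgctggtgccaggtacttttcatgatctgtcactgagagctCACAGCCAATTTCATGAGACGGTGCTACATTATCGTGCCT
Gm51633 (chr1:72936614-72936913): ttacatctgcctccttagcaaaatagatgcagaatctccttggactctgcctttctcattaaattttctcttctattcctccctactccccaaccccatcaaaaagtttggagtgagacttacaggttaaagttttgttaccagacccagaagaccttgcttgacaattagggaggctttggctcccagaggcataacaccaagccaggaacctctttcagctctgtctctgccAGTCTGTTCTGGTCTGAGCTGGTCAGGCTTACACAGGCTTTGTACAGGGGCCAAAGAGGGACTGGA
2310047K21Rik (chr2:104816672-104816971): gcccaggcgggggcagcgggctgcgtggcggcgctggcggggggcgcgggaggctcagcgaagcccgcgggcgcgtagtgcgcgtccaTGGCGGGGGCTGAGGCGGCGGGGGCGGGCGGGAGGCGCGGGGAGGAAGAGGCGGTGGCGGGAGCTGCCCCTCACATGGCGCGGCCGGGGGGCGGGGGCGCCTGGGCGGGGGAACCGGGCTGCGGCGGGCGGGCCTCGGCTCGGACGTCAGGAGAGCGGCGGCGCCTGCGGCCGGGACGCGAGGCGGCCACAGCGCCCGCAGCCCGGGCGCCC
The 3-exon locus at Gm36149 had 13 and 46 reads in replicates 1 and 2 and began 86 bases before the RefSeq start. The 4-exon locus at Gm35546 had 2 and 11 reads and began 10 bases after it. The 8-exon locus at Gm51633 had 6 and 4 reads and began 16 bases before it, in a window without any CG pair. The single-exon locus at 2310047K21Rik had 5 reads in each library and began 162 bases before the RefSeq start, in a window with 49 CG pairs and 84.3% G or C. Its deposited start is also the base where Qser1 begins on the other strand in GENCODE M21.

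Another set of starts faces away from a gene on the other strand. The next sequence is shown because its locus, chr5:138363267-138363719 on the minus strand, had the most reads of those that begin at the base where a RefSeq gene of the other strand begins. It runs on the minus strand away from the start of Gm10874, a long noncoding RNA gene, and capitals mark ATTGG, which is CCAAT on the other strand. On the locus's own strand, RefSeq gives the pseudogene Got2-ps1 a span that covers 100% of the locus. The GENCODE M21 span of Got2-ps1 ends 541 bases away, so from which of these starts the reads come was not tested.
Gm10874, upstream side (chr5:138363469-138363718): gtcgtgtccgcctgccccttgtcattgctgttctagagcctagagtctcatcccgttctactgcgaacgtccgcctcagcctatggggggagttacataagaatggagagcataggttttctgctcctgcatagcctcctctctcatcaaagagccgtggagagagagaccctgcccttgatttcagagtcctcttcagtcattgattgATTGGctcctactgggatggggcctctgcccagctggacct
Short promoter motifs were searched on both strands in all 32851 promoter windows of the table, each motif counted on its own whether or not it overlapped another. CCAAT was found in 37.4% of all windows, in 22 of the 60 windows on the strand of the locus (36.7%) and in 34 of 66 windows that share their start base with a locus on the other strand (51.5%). GGGCGG was found in 35.7% of all windows, in 31.7% of the 60 and in 68.2% of the 66. TATAAA was found in 13.6%, 10% and 12.1%. CACGTG was found in 7.15% of all windows, in 0 of the 60 and in 9.09% of the 66. The median share of G and C was 52.7% over all windows, 53% over the 60 and 62.3% over the 66. The median number of CG pairs was 7, 8.5 and 22.5. Letters of the 60 windows thus lay near those of all promoters, while the 66 windows facing a locus held more G, C and CG pairs. A match is a description of letters only.

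Intergenic reads were a small and uneven share of the libraries. Replicate 1 had 4451 intergenic reads, 0.646% of its 688861 mouse reads (95% Clopper-Pearson interval 0.627 to 0.665), and replicate 2 had 7911 of 1003999, or 0.788% (0.771 to 0.805). The mean was 0.717 ± 0.100% (SD, n = 2), and the libraries differed by more than counting error (Fisher's exact test, two-sided, p = 8.95e-27). Reads are not independent molecules of separate animals, so such intervals and p-values cover counting error only. A count of 0 reads allows up to 4.36 CPM in replicate 1 and 2.99 CPM in replicate 2. Reads were concentrated on few loci: the 10 loci with the most reads held 28.2% of the intergenic reads in replicate 1 and 19.3% in replicate 2. In contrast, 3256 loci (72.1%) had 1 read in all, and only 133 loci reached 10 reads summed over the libraries.

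Few loci recurred, and recurrence followed the number of reads. Of the 4518 loci, 749 (16.6%, 15.5 to 17.7) had models in both libraries, 1099 in replicate 1 only and 2670 in replicate 2 only. The 749 held 59.1% and 57.1% of the intergenic reads. Of the loci with 1 read in replicate 1, 29.5% were found in replicate 2, against 70.0% of those with 2 to 4 reads, 88.1% of those with 5 to 9 and 82.9% of 41 loci with 10 or more. From replicate 2 to replicate 1 these shares were 11.2%, 44.5%, 80% and 91.4% (74 of 81). Antisense loci were found in both libraries in 21.9% of cases. The plot of reads by library shows these loci along the line of the libraries' depth, with a group of well-covered loci at 0 in the other library.

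**Figure D1:**
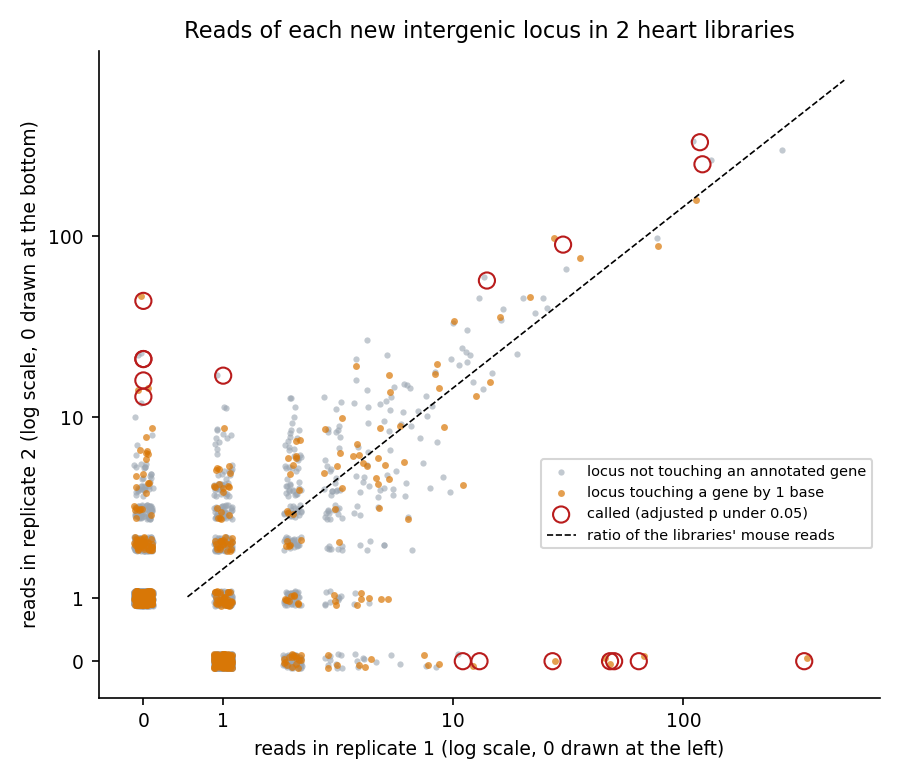
Reads of each of the 4518 new intergenic loci in replicate 1 (horizontal) and replicate 2 (vertical), on log axes with 0 drawn apart and points spread slightly sideways. Orange points touch an annotated gene by 1 base, red circles mark the 17 called loci and the dashed line is the ratio of the libraries' mouse reads. Of the circles, 12 lie on an axis at 0.

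Most loci were short and unspliced. The model with the most reads was 204 nt long in the median (quartiles 164 and 591), against 2198 nt for 18855 known transcripts with reads. Single-exon loci, 4136 in number, had a median of 185 nt, and 53.1% were under 200 nt. The 382 loci with a model of 2 or more exons (8.46%) had a median of 759.5 nt, and 168 of them had 3 or more exons, with 8 at most. Of known transcripts with reads, 92.4% had 2 or more exons. In replicate 1, 15.4% (14.4 to 16.5) of intergenic reads lay on spliced models, and in replicate 2, 13.4% (12.6 to 14.1), a mean of 14.4 ± 1.44% (SD, n = 2). Fisher's exact test gave a two-sided p = 0.00196 for this difference, but without models of 1 read the shares were 16.4% and 14.8% and did not pass (same exact test, p = 0.0628). Loci with a main model under 200 nt held 43.3% and 46.4% of the intergenic reads. At the other extreme, 15 models of 22 reads in all had a deposited length of 1 base.

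The 3′ ends of single-exon loci lay close to each other in the 2 libraries more often than the 5′ ends. Among 37 single-exon loci that touched no gene and had at least 5 reads in each library, the 3′ ends of the main models lay within 10 bases of each other in 34 (91.9%) and the 5′ ends in 24 (64.9%). Over all 495 single-exon loci of both libraries that touched no gene, these shares were 81.0% and 73.1%, so the share of 5′ ends was not higher among the loci with more reads. Of 812 introns, 165 (20.3%) were found in both libraries, while all 27 introns with at least 5 reads in replicate 1 were found in replicate 2 and 37 of 46 such introns of replicate 2 in replicate 1. Of 89 loci that were spliced in both libraries, 82 shared an intron. The median intron was 1809 bases long.

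The 2 spliced loci with the most reads had the same leading exon structure in both libraries. Ranked by the library with fewer reads, the locus at the top of all 4518 was chr11:31545787-31549652 on the plus strand. It had 268 reads in replicate 1 and 317 in replicate 2, or 352 ± 51.8 CPM (SD, n = 2). Its intron chr11:31546002-31548000 of 1999 bases carried 258 and 306 of these reads, and a 2-exon model of up to 1865 nt held 95.9% and 96.2%. The nearest annotated genes were 148996 bases (Gm38061, same strand) and 115529 bases (Bod1, opposite strand, a gene of chromosome biorientation in mitosis) away. The difference between libraries did not pass the adjusted threshold (log2 ratio of replicate 2 over replicate 1 of -0.30, exact binomial test with Benjamini-Hochberg adjustment, adjusted p = 0.187). The unadjusted 95% interval of the log2 ratio without pseudocount was -0.54 to -0.06.

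The locus with the most elaborate structure lay at chr8:77961606-77985239 on the minus strand, with 71 and 96 reads or 99.3 ± 5.27 CPM. It held 46 deposited models of up to 8 exons, whose spliced reads comprise 27 different intron chains, 10 of them in both libraries. A 6-exon chain of 5086 to 5128 nt had the most reads, 25 and 31, which are 35.2% and 32.3% of the locus. Its longest intron, chr8:77973379-77985191 of 11813 bases, had 56 and 70 reads. Of its 24 introns, 12 were found in both libraries. The nearest annotated gene, Gm29895 on the other strand, lay 58771 bases away.

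Several further spliced loci had at least 10 reads in each library. The locus chr11:107201902-107205838 (plus strand, 25 and 46 reads) lay inside the RefSeq long noncoding gene Gm39425 and 2054 bases from the end of Pitpnc1, a phosphatidylinositol transfer protein gene on the other strand. Its introns from 107202219 to 107205211 and from 107205385 or 107205414 to 107205683 give a 3-exon model whose last donor site differed. The intron from 107205414 to 107205683 had 12 and 19 reads and that from 107205385 to 107205683 had 6 and 23. The locus chr1:189993470-189998271 (plus strand) had 18 and 39 reads, all of its 4 introns in both libraries, and a 3-exon chain with 94.4% and 84.6% of its reads. Its nearest genes were Smyd2, a lysine methyltransferase gene that heart expresses (opposite strand, 71107 bases away, 81 and 96 reads), and Gm37422. At Gm36149, whose promoter window is printed above, the introns chr5:111491041-111491132 and chr5:111491289-111492071 had 11 and 43, and 9 and 43 reads. The level of this locus, 18.9 and 45.8 CPM, did not pass the test (adjusted p = 0.0758, exact binomial test with Benjamini-Hochberg adjustment).

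Some spliced loci had introns that span long distances or short ones. The locus chr5:139484549-139512000 (plus strand, 10 and 32 reads) began at the base where Zfand2a, an arsenite-inducible zinc finger gene, begins on the other strand. Its 1 intron of 26788 bases had 7 and 31 reads and joined 2 exons to a model of 159 nt. The locus chr6:108918560-108938829 (minus strand, 12 and 22 reads) had introns of 18871 and 15124 bases from a shared donor, with 6 and 8 and with 4 and 8 reads. The locus chr1:75936082-76095029 (plus strand, 11 and 18 reads) lay in the RefSeq gene Gm32622 over 99.2% of its length, and 3 of its 18 introns were found in both libraries. The locus chr6:146544748-146545421 (minus strand, 10 and 26 reads) lay 4211 bases after the end of Ints13, a subunit gene of the Integrator complex, and used 2 donors for 1 acceptor. The locus on the Y chromosome, chrY:43918756-43923547 (minus strand), had 14 reads in each library, 13 of them across an intron of 77 bases. At chr4:133095989-133101553 (plus strand, 14 and 16 reads), 12 and 14 reads were unspliced, and none of its 4 introns recurred. The exon maps show these structures.

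**Figure D2:**
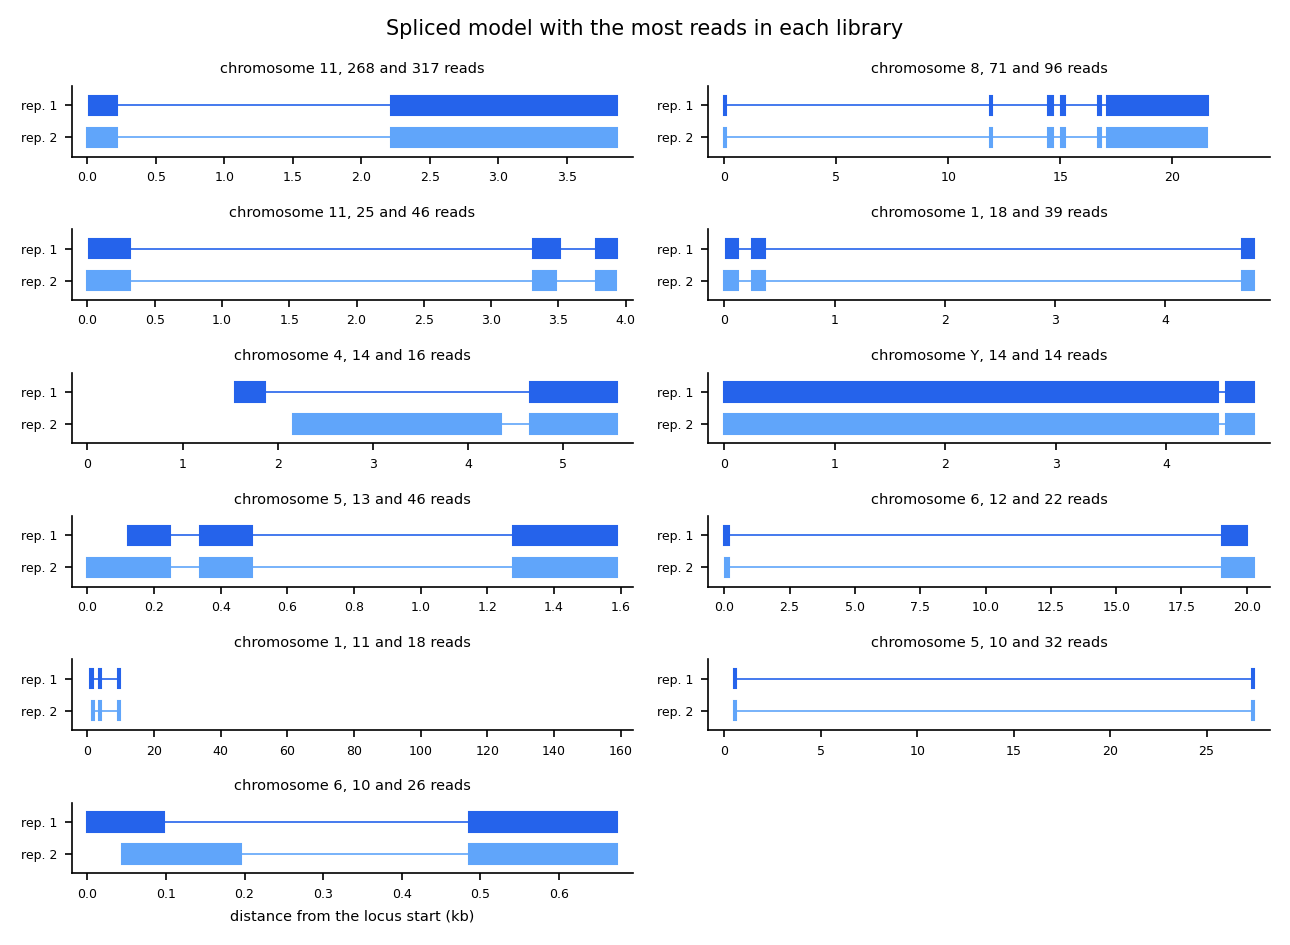
Exons (boxes) and introns (lines) of the spliced model with the most reads in each library, for the 11 spliced loci with at least 10 reads in each library, drawn 5′ to 3′ by distance from the start of the locus in kb. Dark bars are replicate 1, light bars replicate 2, titles give the locus's reads in both, and very short exons are widened to stay visible. The locus with 268 and 317 reads has the same 2 exons in both libraries, while those with 14 and 16 and with 10 and 26 reads differ in their first exon.

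Of the single-exon loci, several short ones had high counts outside annotated genes. The locus chr7:19933823-19933992 (plus strand) was 170 nt long with 121 and 250 reads. The locus chr15:103619062-103619240 (plus strand) spanned 179 bases, with a main model of 121 nt and a longest of 172 nt, and had 118 and 331 reads. The former lay 3313 bases from the end of Igsf23 on the other strand and the latter 30552 bases from the nearest gene on its own strand, Gm49272. The locus chr7:126643199-126643377 (minus strand) had 32 and 70 reads, and chrUn_GL456382:14203-14749, on an unplaced sequence without an annotated gene, had 24 and 42. The locus chr11:100459184-100461670 (plus strand, 23 and 39 reads) lay 2162 bases after the end of Klhl10, a testis-expressed gene with 0 and 1 reads, and 944 bases from the end of Klhl11 on the other strand. A locus of 3463 nt, chr7:28187294-28190756 (minus strand, 33 and 71 reads), touched the end of Dyrk1b, a protein kinase gene of the other strand with 12 and 15 reads. These distances are to GENCODE M21 genes. In RefSeq the spans of Klhl11 and Dyrk1b, on the other strand, covered 100% of the locus near each. Of the loci with 10 or more reads over the libraries, those with the longest models had them unspliced, though not all of these loci were single-exon. They lay at chr4:3192265-3200300 (up to 8036 nt, 6 and 15 reads, over 92.4% of its length in the RefSeq gene Gm52720), chr13:119661766-119669872 (up to 8034 nt, 2 and 9 reads) and chr4:123216275-123222224 (5950 nt, 0 and 13 reads). At chr4:3192265-3200300 an intron of 5304 bases had 3 and 5 reads. At chr13:119661766-119669872, 0 and 2 reads were spliced, and the main model was 110 nt long.

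The distance to genes varied, and a set of loci began or ended exactly at a gene boundary. Of the 4518 loci, 2447 (54.2%) lay within 5000 bases of an annotated gene on either strand, and 25.0% within 1000 bases. Without the loci that share 1 base with a gene, 1792 of 3863 (46.4%) lay within 5000 bases. On their own strand 563 lay after a gene's end and 378 before its start, and on the other strand 342 lay beside a start and 497 beside an end. The 2067 loci over 5000 bases away (45.8%) held 36.1% of the intergenic reads of replicate 1 and 44.1% of those of replicate 2. The 655 loci that shared exactly 1 base with a gene held 31.8% and 19.4%. Among them, 261 began at the end of a gene on their own strand, 49 ended at the start of one, 258 began at the start of a gene on the other strand and 87 ended at the end of one. The plot of positions gives these shares beside each other.

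**Figure D3:**
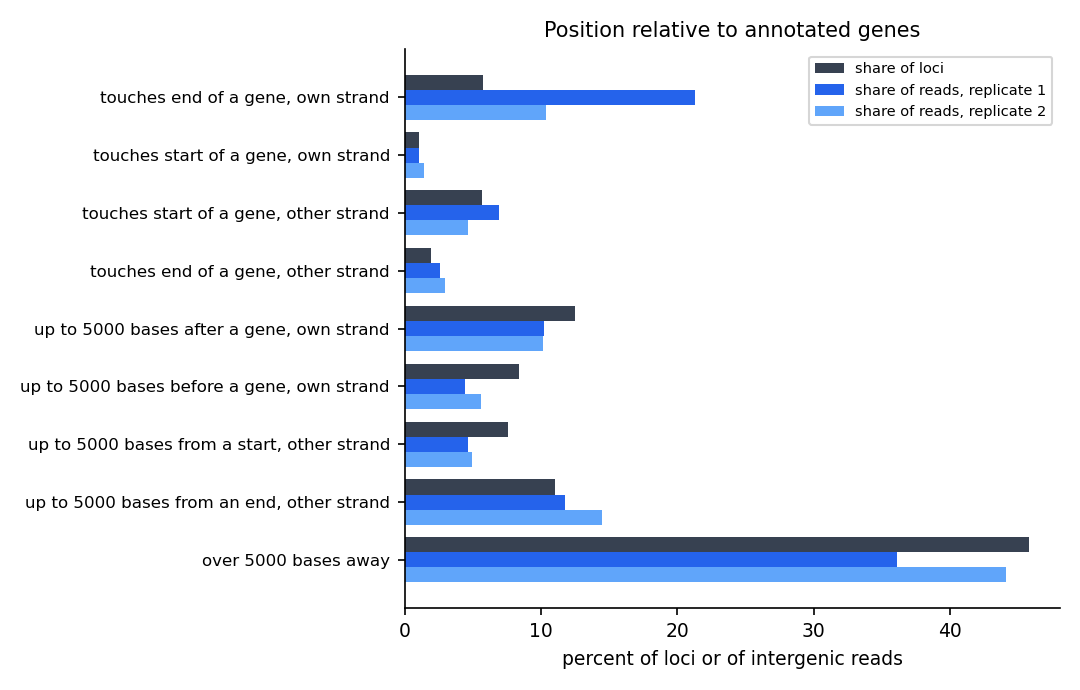
Share of the 4518 loci (dark) and of the intergenic reads of replicate 1 and replicate 2 (blue), in percent, by position relative to the nearest GENCODE M21 gene. Loci that touch the end of a gene on their own strand are 5.78% of loci and hold 21.3% of the reads of replicate 1 and 10.4% of those of replicate 2.

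Gene boundaries and locus ends coincided to the base. The start of a locus fell on the end of an annotated transcript of its own strand in 263 loci, while no other distance within 20 bases was found in more than 12. It fell on the start of a transcript of the other strand in 265 loci, against at most 9 at any other distance. The end of a locus fell on a transcript's end on the other strand in 91 loci, against at most 4, and on a transcript's start on its own strand in 52, against at most 2. No locus start fell on a transcript start of its own strand within these 20 bases, and 1 locus end fell on a transcript end of its own strand. Unless very short, a locus with such a contact would overlap the gene, so these low counts follow largely from the class intergenic. Whether model building moved locus ends to known positions was not tested, because single reads were not analysed here.

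**Figure D4:**
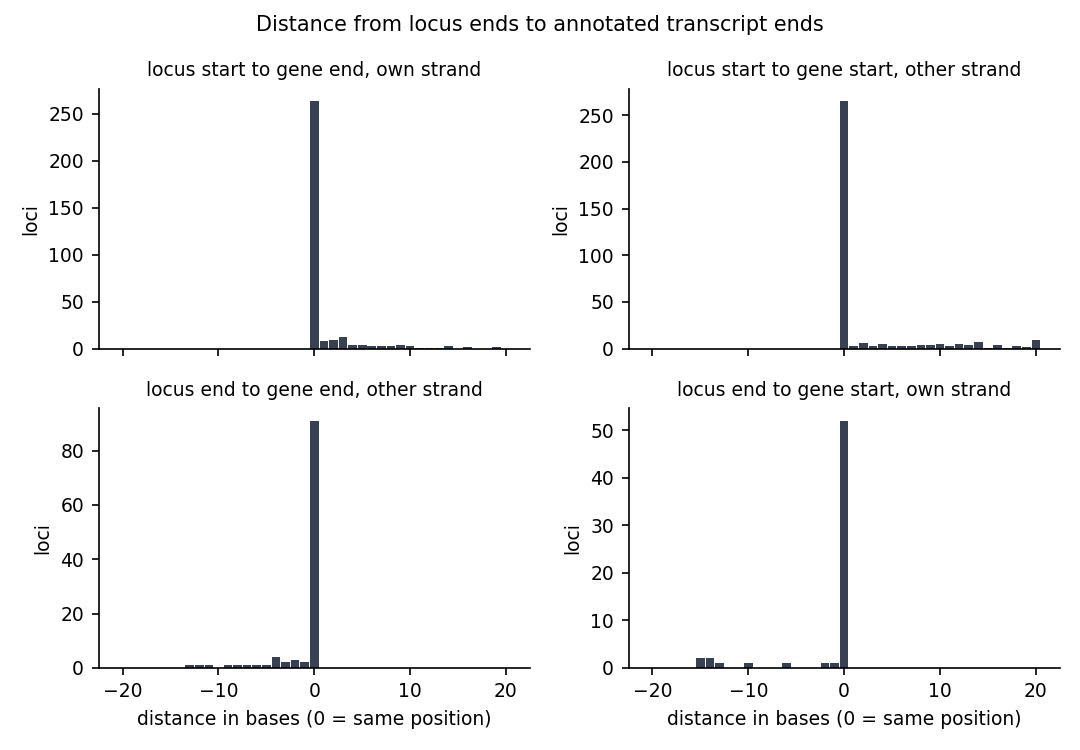
Number of loci (vertical) by the distance in bases from a locus end to an annotated transcript end (horizontal, from -20 to 20, positive where the locus end lies downstream), for the 4 kinds of contact. The bar at 0 holds 263, 265, 91 and 52 loci, and no other bar reaches more than 12.

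Loci that began at the end of a gene on their own strand followed coding genes most often, while those behind pseudogenes held more reads. Of the 261, 145 followed a protein-coding gene with 160 and 235 reads in all, 89 followed a pseudogene with 767 and 533 reads, and 27 another kind of gene. Reads behind pseudogenes were concentrated: the locus behind Gm12671 alone held 335 of the 767 in replicate 1 and 0 in replicate 2. The locus chr12:24637995-24638669 (minus strand) had 108 and 151 reads and followed Gm6969, a pseudogene with 6 and 17 reads that is 97.7% identical over all of its length to Cox7a2l, a gene of respiratory supercomplex assembly. The locus chrX:29563204-29564014 (minus strand), with 74 and 91 reads, followed Gm15432, which had 6 and 2 reads and is 98.5% identical to 1810037I17Rik. The locus chr11:100361596-100361716 (minus strand), with 30 and 90 reads, followed Gm10039, which had 32 and 1 reads and is 99.8% identical to Atp5g1, a subunit gene of ATP synthase with 2540 and 4104 reads. In RefSeq the spans of Gm6969 and Gm10039 covered 100% of the loci behind them, and that of Gm15432 covered 32.2%. Counts on these pseudogenes and on the loci behind them are uncertain, since reads of near-identical copies can be split between them.

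Loci that began at the start of a gene on the other strand were mostly beside coding genes. Of these 258 loci, 226 lay beside a protein-coding gene, with 203 and 346 reads, and 45 of the 226 were spliced. The other 32 had 104 and 24 reads, of which the locus beside Gm10874, printed above, held 64 in replicate 1. The locus at Nrf1, a transcription factor gene of mitochondrial biogenesis, had 5 and 6 reads and began at the RefSeq start of that gene on the other strand.

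Loci that overlapped RefSeq genes absent from GENCODE M21 were spliced more often than loci without such a gene. Of the 230 loci on the strand of a RefSeq gene that GENCODE M21 lacks, 106 (46.1%) were spliced and 64 (27.8%) were found in both libraries. Of the 3315 loci that overlapped no RefSeq gene, 195 (5.88%) were spliced and 488 (14.7%) were found in both. These 230 loci held 5.59% of the intergenic reads of replicate 1 and 6.12% of those of replicate 2. Of the 397 loci that overlapped a RefSeq gene of their strand that GENCODE also holds, 6.30% were spliced, and of the 432 classed by a RefSeq gene of the other strand, 6.48%. Of the 144 that overlapped a RefSeq gene whose strand the tables do not give, 19.4% were spliced.

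The libraries were then compared locus by locus. Of the 133 loci with 10 or more reads over the libraries, 17 (12.8%) were called by the exact two-sided binomial test (Benjamini-Hochberg adjusted p under 0.05 over all features), 10 higher and 7 lower in replicate 2. Over all 9579 annotated genes and new loci tested, 3.75% were called, with 3.49% of annotated genes and 5.57% of antisense loci. Replicate 2 over replicate 1 gave a median log2 ratio of 0.55 over the 133 loci and -0.04 over all features, on the log2(CPM + 1) scale. It was 0.74 over the 51 tested loci with a main model under 200 nt, 0.53 over the 43 of 200 nt up to under 1000 nt and -0.03 over the 39 of 1000 nt or more. Reads on models under 200 nt were 2.44% of the reads of annotated genes in replicate 1 and 3.05% in replicate 2, so short models had a larger share of replicate 2 there too. The part of model length in the differences between loci was not tested. Without the 655 loci that touch a gene, 7 of 93 tested loci (7.53%) were called, against 3.64% of all features.

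Most of the called loci had intergenic reads in 1 library only. These were 12 of the 17, and in each of the 12 the other library had reads on a model of another class that overlaps the locus by at least 1 base on the same strand. In 5 of the 12 such a model covered at least 50% of the locus, and in the other 7 none did. After the reads of such models were added in both libraries, 11 of the 12 lay within 2-fold on the log2(CPM + 1) scale, and the exception was a locus at the start of Amd-ps3 with 0 and 16 reads, 5 and 19 after the addition. With the reads added, 1 of the 12 remained called, namely the locus behind Gm10221.

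The locus with the most reads in 1 library was chr4:91851488-91851668 (minus strand), with 335 reads in replicate 1 and 0 in replicate 2 (adjusted p = 4.9e-128, exact binomial test with Benjamini-Hochberg adjustment). It begins at the end of Gm12671, a pseudogene that is identical over 1002 bases to Gapdh, the glycolytic enzyme gene. Gm12671 itself had 247 and 748 reads, so that locus and pseudogene together had 582 and 748 reads, while Gapdh had 13 in each library. The locus behind Gm10221 (chr5:24581458-24581554, minus strand) had 50 and 0 reads and that pseudogene, identical over 309 bases to the ATP synthase subunit gene Atp5l, 41 and 201. The locus behind Gm6055 (chr14:48079135-48079375, minus strand) had 48 and 0 reads and the pseudogene, 99.7% identical to the autophagy gene Map1lc3b, 0 and 104. The locus behind Gm9755 (chr8:67514002-67514235, minus strand) had 27 and 0 reads and the pseudogene, 99.9% identical to the elongation factor gene Tufm, 28 and 70. The locus behind Hsp25-ps1 (chr13:45078371-45078498, minus strand) went the other way, with 0 and 44 reads, and the pseudogene, 99.4% identical to the small heat shock protein gene Hspb1, had 68 and 30. In each of these 5 cases the library without intergenic reads had reads on the pseudogene, whose GENCODE M21 span shares 1 base with the locus. The RefSeq span of the same pseudogene covered 100% of the locus in all 5, so these loci are intergenic by GENCODE M21 only.

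At the other called single-library loci the other library also had reads on overlapping models. The locus chr5:138363267-138363719, beside Gm10874 and inside the RefSeq span of Got2-ps1, had 64 and 0 reads. A model classed as antisense had 62 reads there in replicate 2. The locus chr2:180719397-180722240 (minus strand) had 0 and 21 reads and overlapping models of other classes 28 and 0. The locus chr4:149498473-149500633 (minus strand) had 13 and 0 reads and overlapping models 0 and 11. At neither of these loci did an overlapping model cover 50% of the locus. The locus chr9:48651795-48653093 (minus strand), 1204 bases after Zbtb16, a zinc finger transcription factor gene, had 0 and 21 reads, and a Zbtb16 model over it had 20 reads in replicate 1. The locus chr4:123216275-123222224 (plus strand), which begins at the end of Nt5c1a, a cytosolic nucleotidase gene of muscle and heart, had 0 and 13 reads, and Nt5c1a models over it had 16 and 1. These positions are relative to GENCODE M21 genes. In RefSeq the spans of Zbtb16 and Nt5c1a, on the same strand, covered 99.8% and 100% of the locus near each. The plot of stacked reads shows that the sums of the libraries came close to each other at most of the called single-library loci.

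**Figure D5:**
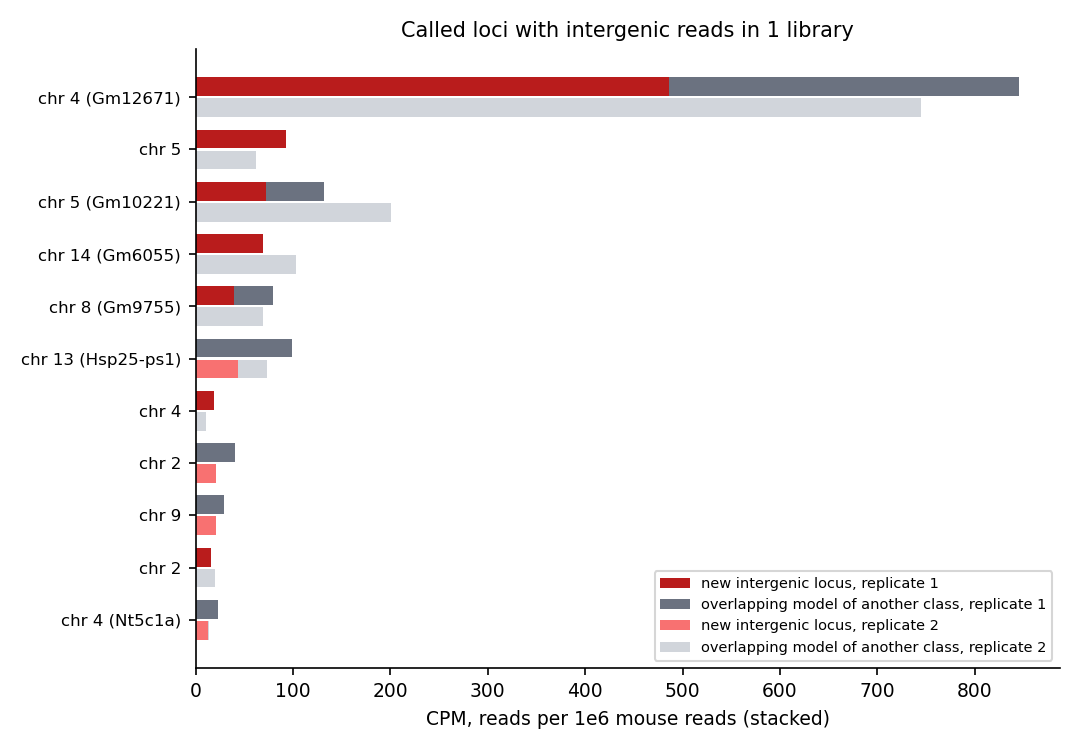
CPM, stacked, at 11 of the 12 called loci with intergenic reads in 1 library. Red bars are reads on the intergenic locus and grey bars reads on overlapping models of other classes on the same strand, dark for replicate 1 and light for replicate 2, with the pseudogene or gene named where the locus begins at its end. At Gm12671 the locus and the pseudogene together had 582 reads in replicate 1 and 748 in replicate 2.

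The remaining 5 called loci had reads in both libraries and were higher in replicate 2. The locus chr15:103619062-103619240 had 118 and 331 reads, 171 and 330 CPM (log2 ratio 0.94, interval of the ratio without pseudocount 0.64 to 1.26, adjusted p = 3.15e-08, exact binomial test with Benjamini-Hochberg adjustment). The locus chr7:19933823-19933992 had 121 and 250 reads (log2 ratio 0.50, adjusted p = 0.042, same exact test). The locus behind Gm10039 had 30 and 90 reads (log2 ratio 1.02, adjusted p = 0.0138), but with the 32 and 1 reads of that pseudogene the sums were 62 and 91 reads and the call was lost. The other 2 lie outside the rule for named loci and were chosen after their values were seen. The locus chr11:69075739-69075917 (minus strand) had 14 and 57 reads and chr2:152289447-152289763 (minus strand) had 1 and 17. No overlapping model of another class had reads at either of these.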

How the data were processed

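Long-read RNA sequencing of 2 heart libraries was analysed. The authors deposited, for each library, read counts per transcript model as whole numbers that were not normalized, and an annotation file with the exons of each model. The deposited text descriptions name mm10 and GENCODE M21, and new models have TALON as their source in the deposited files. Aligner, filters and software versions: not given in the sources used here. Replicate 1 held 699529 reads and replicate 2 held 1019974, of which 688861 and 1003999 lay on mouse models and the others on spike-ins.

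Intergenic models were joined into loci where spans overlapped by at least 1 base on the same strand. Neighbours came from GENCODE M21, and further genes and promoter windows from RefSeq (GRCm38.p6). The main model of a locus is the one with the most reads. CPM is counts per 1e6 mouse reads, and log2 ratios used a pseudocount of 1 CPM. Annotated genes, antisense loci and intergenic loci with 10 or more reads over the libraries entered 1 table. Each feature's reads were tested against the ratio of mouse read totals (exact binomial test, two-sided), with p-values adjusted by Benjamini-Hochberg over the whole table and called under 0.05. For shares, Fisher's exact test of scipy 1.17.1 was used. On simulated data for replicate 2 against replicate 1, with 9579 features and counting noise only, the test called 86% of features raised 4-fold, 46% of those raised 2-fold and 0.128% of unchanged ones. Raised features were drawn at random from the whole table, which held 8836 annotated genes and 133 intergenic loci. Rates for intergenic loci alone were not estimated. Pseudogenes were compared with coding transcripts by blastn 2.17.0. TMM factors (edgeR 4.0.16) and DESeq2 1.42.0 size factors served as alternatives in R 4.3.3.

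Named loci were the top 12 by reads in the library with fewer, spliced loci with at least 10 reads in each library, up to 10 called loci by smallest adjusted p, the 5 single-library loci with the most reads and the 3 longest with at least 10 reads. The members and lists were chosen with earlier results of these data known. No genome sequence was used here, so splice site, poly(A) signal and A-rich end sequences were not analysed here.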

Additional observations from a re-analysis of the deposited data

How the results depend on the processing

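Of 29 alternatives run, 19 were classed as same, 1 as weaker and 9 as moved. Same meant on the same side of the test's threshold, inside the main interval or, for counts of called loci, within a set fold. That fold did not weigh the share over all features. Leaving out 1 of the 2 replicates always counts as same, since neither library can lie further from their mean than their SD. A reversal could be recorded only where a share was compared by Fisher's exact test, and none was. The count of called loci was 17 in the analysis above (12.8%, against 3.75% of all features) and 17 to 19 of 133 with TMM or DESeq2 scaling or joining by exons. With a minimum of 5 reads it was 19 of 358 (5.31% against 2.70%), and with a minimum of 20 it was 13 of 56 (23.2% against 5.21%). With no minimum it was 15 of 4518, and this 0.332% lay below the 0.802% of all features. With the reads of overlapping models of other classes added, 18 of 278 tested loci were called (6.47% against 3.68%), 16 of them higher in replicate 2 and 5 of them among the 17. Without loci that touch a gene it was 7 of 93 (7.53% against 3.64%). The last 2 settings were chosen after seeing the data. The share of loci found in both libraries, 16.6%, was 86.9% of loci with at least 5 reads and 89.5% of those with at least 10. It was 22.1% when a model of any class counted and 19.4% when a model of another class had to cover 50% of the locus, the latter added after seeing the data. The share within 5000 bases of a gene, 54.2%, was 25.0% at 1000 bases, 67.9% at 10000 bases, 65.4% of loci with at least 10 reads and, added later, 46.4% without touching loci. The mean spliced share without models of 1 read was 15.6% and its difference no longer passed Fisher's exact test (p = 0.0628); the cause was not tested. Leaving out a replicate gave intergenic shares of 0.646% to 0.788% and spliced shares of 13.4% to 15.4%. The planned analyses of poly(A) signals, A-rich ends and GT-AG introns were not run, since no genome sequence was used here. No paired analysis was possible because there is 1 group. Depth limits the 3256 loci with 1 read, whose absence from a library was not detectable at this depth as a difference.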
